A study of Mus musculus with 28 samples.

Results

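Palmitate was compared with mock treatment in mouse embryonic fibroblasts (MEFs) that were given back PKR with both of its motifs for binding double-stranded RNA mutated. The RNA counted is the RNA that came down when this mutant PKR was immunoprecipitated. Dataset A holds 3 mock and 3 palmitate libraries of this kind, 6 of the 28 samples of the series, and every feature in them is described from the raw counts. The cells of all 6 libraries carried the same mutant protein, and the treated cells received 0.1 mM palmitic acid. Used beside them were the same pair of treatments with wild-type PKR in dataset A and with the mutant in dataset B, each with 3 libraries per treatment. The length of treatment is not given in the labels, and the column headers of dataset B alone carry the mark 2hr. The immunoprecipitated RNA was extracted with Trizol, fragmented, and cloned with a small RNA kit. None of the samples used is an input or a control precipitate, so that the abundance of an RNA in the cells and its recovery with the protein cannot be told apart. In the same way, fewer cells of a type and less RNA per cell cannot be told apart. The labels do not say whether the MEF lines are clones. The series' design text calls the libraries of a group biological replicates, without naming separate cultures, and the p-values measure the spread between these libraries.

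PKR, encoded by Eif2ak2, is a kinase that binds double-stranded RNA through a pair of motifs, becomes active on it, and phosphorylates the translation factor eIF2 alpha. Palmitate, a saturated fatty acid, is known to activate PKR and to cause lipotoxic stress in cultured cells. Fatty acids also act on nuclear receptors that control genes of lipid handling, and serum-responsive pathways in fibroblasts control secreted matrix proteins and early transcription factors.

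Palmitate replicate 2 stood apart from the other libraries and bears on every result. It held 254762 counts, against 5025829 to 8036622 in the other 5 mutant libraries, and 8905 features had a count, against 15698 to 16095. Its Spearman correlation with the other 5 across features was 0.7886 to 0.7997, and theirs with each other was 0.960 to 0.975. A single count in it was worth 3.45 CPM (a count relative to its library's TMM-adjusted size), against 0.138 to 0.152 CPM elsewhere, and a count of 0 allows a level of up to 10.3 CPM (3 counts, counting error only). In replicate 2, 199 of 883 features with at least 20 counts took over 3 times their share in any other mutant library. Together they held 40.5% of its counts and at most 9.95% of any other library's, 42 of them being ribosomal RNA, 27 snRNA and 112 protein-coding features. How reads that match several copies of a gene were counted is not stated, and 41 ribosomal RNA features matched another feature within 3% or 3 counts in all 12 libraries of dataset A, so that counts and shares of ribosomal RNA may hold the same reads more than once. Replicates all differed from each other by more than sampling noise. Of 15 fibroblast markers 14 were tested, with a summed level of 9554 to 12654 CPM over the 6 libraries. Of 15 macrophage and lymphocyte markers and 13 epithelial markers 0 passed the filter, their sums being at most 2.97 and 2.10 CPM, and 8 and 7 of them, with Adgre1, Cd3e and Krt18 among these, had 0 counts in all 6 libraries. Of 12 endothelial markers Flt1 and Tek were tested, and the list summed to 20.6 to 22.3 CPM in mock and 17.2 to 33.2 CPM with palmitate.

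With palmitate 54 of 11328 features were called, 36 higher and 18 lower (0.477% of those tested, 0.318% higher and 0.159% lower; edgeR quasi-likelihood test, adjusted p under 0.05). The higher group contained Angptl4, Olr1, Ccn1, Ccn2, Skil and Nr4a1. The lower group contained the transcription factor Osr2, the ceramide synthase Cers4 and the protease Adamts1. Log2 fold changes ran from 1.02 to 2.60 with a median of 1.42 among the higher features, and from -2.20 to -0.89 with a median of -1.38 among the lower. The median over all features was -0.04. Scaling by total counts left 12 calls, all 12 higher, and DESeq2 gave 44 higher and 3 lower. A fit of only the 6 mutant libraries gave 13 higher and 1 lower. At an unadjusted p under 0.05 were 13.4% of all features, 6.08% higher and 7.28% lower, which is the background for the counts at that level given for gene lists below.

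Without palmitate replicate 2 the same fit called 127 of 11630 features, 96 higher and 31 lower (1.09%, 0.825% and 0.267%). All 54 were among the 127. The fit that called the 54 used replicate 2, so its values are no separate check on them. In replicate 2, 30.1% of the 11630 features lay above all 3 mock libraries and 59.7% lay below. The level there lay above all 3 mock libraries for 29 of the 36 higher features. It lay below them for 17 of the 18 lower ones, and 7 of the 18 had 0 counts there. These levels rest on few counts, with a median of 3.5 for the higher and 1 for the lower features. The groups did not overlap for the same numbers, 29 and 17, against 6.97% of all features in the higher and 14% in the lower direction. Leaving out mock replicates 1, 2 and 3 in turn gave 9, 5 and 29 calls, and leaving out palmitate replicates 1 and 3 gave 28 and 31. The wild-type libraries share the estimate of spread, and leaving out 1 of them gave 25 to 113 calls. Of the 54, Angptl4, Ccn2, Skil, Baz1a and Osr2 were called in all 6 of these fits, 4 more in 5 of them, and 22 only in the fit without replicate 2.

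**Figure D1:**
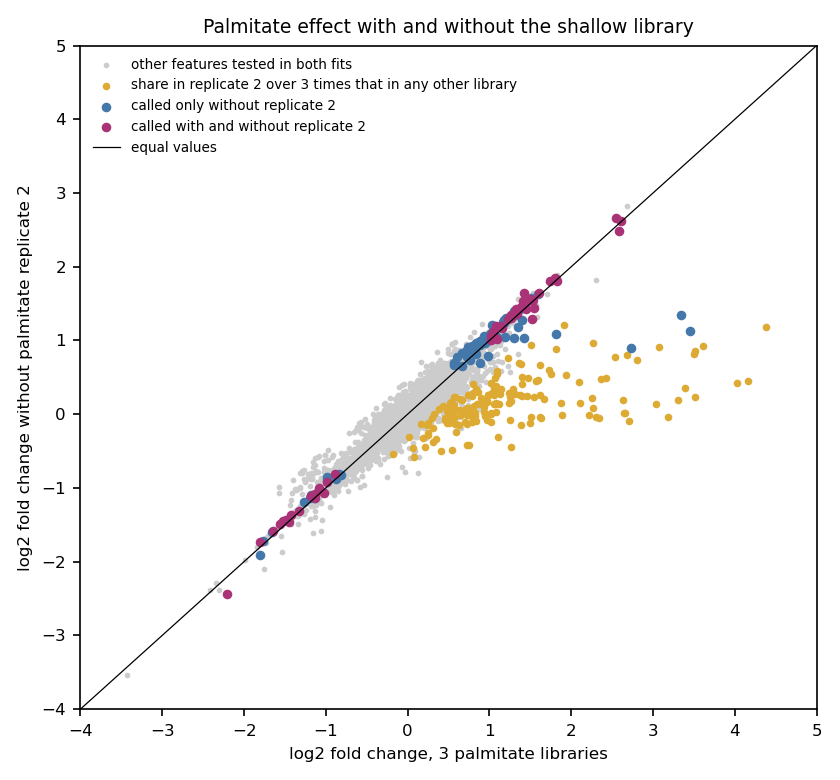
Log2 fold change (palmitate against mock, mutant PKR, dataset A) with 3 palmitate libraries on the horizontal axis and without palmitate replicate 2 on the vertical axis, 1 point per feature tested in both fits. The 54 features called in both fits lie near the line of equal values, and features whose share in replicate 2 was over 3 times that in any other mutant library lie to its right.

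The gene with the smallest p was Angptl4 (chr 17, 33910695 to 33918520, minus strand, mm9), a secreted inhibitor of lipoprotein lipase and a target of fatty acid-sensing nuclear receptors. It had 6.38, 6.08 and 4.89 CPM in mock replicates 1, 2 and 3 and 35.3, 58.6 and 28.7 CPM in palmitate replicates 1, 2 and 3. All 3 palmitate libraries were far above all 3 mock libraries. Its fold change was 6.02, and the log2 value without replicate 2 was 2.49 ± 0.21 (SE, adjusted p = 3.62e-06). Olr1 (chr 6, 129435264 to 129457183), a receptor for oxidised low-density lipoprotein, was scarce, with 0.608, 0.145 and 0.445 CPM in mock and 2.10, 3.45 and 2.90 CPM with palmitate. These levels stand for 1 to 4 counts in mock libraries and 15, 1 and 21 counts with palmitate, and the groups did not overlap. The log2 fold change was 2.60 ± 0.55 (adjusted p = 0.0425), past the threshold in 1 of the 6 leave-one-out fits, that without replicate 2 (adjusted p = 0.0302, and 0.078 to 0.242 in the other 5).

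Of the other fatty acid receptor targets and enzymes of beta-oxidation, none passed the test by edgeR. Of 38 on the list, Angptl4 included, 26 were tested, 1 was called (also 1 by DESeq2), and limma with library weights called 1 higher and 1 lower. At an unadjusted p under 0.05 were 3 higher and 2 lower (of all features 6.08% and 7.28%), and the median was 0.06 with 17 positive values. Acadl, a long-chain acyl-CoA dehydrogenase, had 0.64 ± 0.29 (adjusted p = 0.36) and 0.41 without replicate 2. Cpt1b, a carnitine palmitoyltransferase, had -1.60 ± 0.47 (adjusted p = 0.144).

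Several genes known as targets of TGF-beta or of the transcription cofactor YAP rose with palmitate. Of 31 tested on that list of 33, 5 were called higher and 0 lower, where 0.318% and 0.159% of all features were. Values were positive for 25, where 46.0% of all features were positive, and the median was 0.24, against -0.04 over all features. The list was written with earlier results of these data known. The list's median was 0.33 without palmitate replicate 2 and 0.01 without palmitate replicate 3. Ccn2 (named Ctgf in the files; chr 10, 24315248 to 24318489, plus strand, mm9), a secreted matricellular protein, had 3.04, 2.75 and 2.82 CPM in mock and 16.5, 0 and 19.5 CPM with palmitate. The 0 belongs to replicate 2, whose limit of 10.3 CPM lies above the mock level but below the level in the other palmitate libraries. Replicate 2 thus did not show the rise seen in those libraries, which were each over all mock libraries. The log2 fold change was 2.54 ± 0.30 (adjusted p = 0.000328), or 2.67 ± 0.22 without replicate 2 (adjusted p = 3.62e-06).

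Its relative Ccn1 (Cyr61 in the files; chr 3, 145309935 to 145312949) had 6.68, 4.63 and 7.41 CPM in mock and 16.1, 10.3 and 20.3 CPM with palmitate. The groups did not overlap, and the log2 fold change was 1.5 ± 0.22 (adjusted p = 0.00307, or 0.0566 without mock replicate 2 and 0.000935 to 0.0350 without any other of the 6 libraries).

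The Smad corepressor Skil (chr 3, 30993980 to 31021499) had 16.6, 18.2 and 16 CPM in mock and 43.3, 27.6 and 52.9 CPM with palmitate. It rose by 1.41 ± 0.20 (adjusted p = 0.00225), and its adjusted p stayed at or below 0.0316 in the 6 fits that left out a mutant library. Pmepa1, a membrane protein that restrains Smad signalling, had 5.32, 7.39 and 7.86 CPM in mock and 15.7, 6.90 and 18.6 CPM with palmitate. Replicate 2, with 2 counts, lay within the mock range, and the log2 fold change was 1.26 ± 0.25 (adjusted p = 0.0349). It was called without replicate 2 (adjusted p = 0.00791) and not without any of the other 5 libraries (0.0505 to 0.185). The ligand Tgfb3 was called only without replicate 2, at 1.03 ± 0.22 (adjusted p = 0.0302), and is 1 of the features with excess counts in that library.

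**Figure D2:**
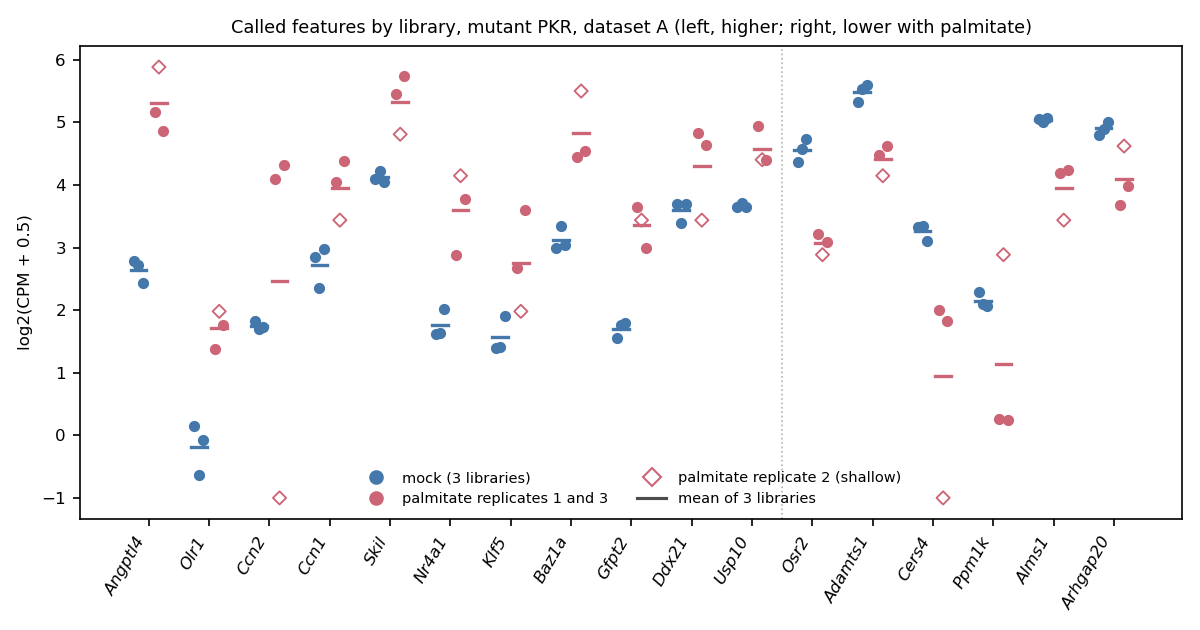
Log2(CPM + 0.5) of 17 of the called features in each mutant library of dataset A, with mock in blue, palmitate in red, palmitate replicate 2 as open diamonds and the mean of 3 libraries as a line. Palmitate replicates 1 and 3 lie above all mock libraries for the 11 features on the left and below them for the 6 on the right, while replicate 2 falls to 0 counts for Ccn2 and Cers4 and lies above mock for Ppm1k.

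Other higher features are given below in an order chosen by hand after their values were seen. Nr4a1 (chr 15, 101097277 to 101105223), an orphan nuclear receptor and immediate early gene, had 2.58, 2.61 and 3.56 CPM in mock and 6.87, 17.2 and 13.3 CPM with palmitate. The zinc finger factor Klf5 had 2.13, 2.17 and 3.26 CPM in mock and 5.89, 3.45 and 11.6 CPM with palmitate. In both genes the lowest palmitate library was above the highest mock library, although Klf5 had 1 count in replicate 2. The log2 fold changes were 1.83 ± 0.32 for Nr4a1 (adjusted p = 0.00991) and 1.74 ± 0.32 for Klf5 (adjusted p = 0.0144). Nr4a1 was not called without mock replicate 1, mock replicate 2 or palmitate replicate 3 (adjusted p = 0.0808, 0.099 and 0.121, from 0.00416 upward over the 6 libraries). Klf5 was lost without the same 3 libraries (adjusted p = 0.12, 0.158 and 0.182, from 0.00791 upward).

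Baz1a (chr 12, 55993976 to 56115335, overlapping Gm20403), a subunit of an ISWI chromatin remodeller, had 7.44, 9.70 and 7.71 CPM in mock and 21.4, 44.8 and 22.9 CPM with palmitate. It rose by 1.54 ± 0.24 (adjusted p = 0.00511), or 1.44 ± 0.21 without replicate 2. Of 40 genes of chromatin remodelling and histone modification tested, Baz1a was the 1 called, and the list's median was -0.00. Chd7, another remodeller, had 1.10 ± 0.26 (adjusted p = 0.0705) and was called without replicate 2 (adjusted p = 0.046). The zinc finger protein Hivep3, the transcription cofactor Lbh, the zinc finger protein Zfp469 and Pprc1, a coactivator related to PGC-1, were also called, at 1.47, 1.16, 1.50 and 1.43. Pprc1 had 22.5, 26.5 and 34.4 CPM in mock and 73.6, 34.5 and 96.5 CPM with palmitate. Of these 4, Hivep3 was called in 5 of the 6 leave-one-out fits (adjusted p = 0.0566 without mock replicate 2), Zfp469 and Pprc1 in 3 and Lbh in 2.

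The other immediate early genes gave a partial pattern. Of 42 listed 34 were tested, Nr4a1 was the 1 called, 24 had positive values, and 12 had an unadjusted p under 0.05, all higher, where 6.08% of all features did. The median was 0.37, or 0.01 without palmitate replicate 3. Without replicate 2 the calls were Nr4a1, Egr3, Ier3, Srf and Fosl2. Srf, the serum response factor, had 2.28, 3.33 and 2.97 CPM in mock and 5.04, 0 and 8.42 CPM with palmitate. Egr3, a zinc finger factor, had 1.37, 1.30 and 1.63 CPM in mock and 3.08, 0 and 5.11 CPM with palmitate. Both had 0 counts in replicate 2, and the log2 fold changes without it were 1.25 ± 0.28 (adjusted p = 0.0353) and 1.53 ± 0.33 (adjusted p = 0.0302).

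Genes of NF-kB and inflammation were not called by edgeR or DESeq2 (0 of 22 tested, 6 higher and 2 lower at an unadjusted p under 0.05, against 6.08% and 7.28% of all features), and limma with library weights called 4 higher. Without replicate 2 edgeR called Lif, Ptgs2, Tnfaip3 and Il1rl1. The cytokine Lif had 1.06, 1.16 and 1.78 CPM in mock and 2.94, 3.45 and 5.24 CPM with palmitate. All palmitate libraries were higher, but the level in replicate 2 stands for 1 count. The log2 fold change of Lif without replicate 2 was 1.63 ± 0.38 (adjusted p = 0.0436). Ptgs2, the inducible cyclooxygenase, had 5.01, 3.62 and 4.30 CPM in mock and 8.27, 0 and 12.3 CPM with palmitate. It gave 1.18 ± 0.31 with all libraries (adjusted p = 0.108) and 1.28 ± 0.28 without replicate 2 (adjusted p = 0.0302). Tnfaip3, a ubiquitin-editing inhibitor of NF-kB, gave 1.05 ± 0.23 and Il1rl1, the interleukin-33 receptor, 0.82 ± 0.19 without replicate 2.

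Gfpt2 (chr 11, 49607689 to 49652115), an enzyme of the hexosamine pathway, had 2.43, 2.90 and 2.97 CPM in mock and 12.1, 10.3 and 7.45 CPM with palmitate. It rose by 1.81 ± 0.32 (adjusted p = 0.011, or 0.0897, 0.0780 and 0.118 without mock replicate 1, mock replicate 2 and palmitate replicate 1). The hexokinase Hk2 had 5.62, 4.92 and 6.08 CPM in mock and 12.3, 17.2 and 9.52 CPM with palmitate, and rose by 1.02 ± 0.22 (adjusted p = 0.0466, or 0.0784 to 0.272 without any mock library or palmitate replicate 1). Neither overlapped between groups. Hk2 was the 1 call among 24 tested genes of glucose metabolism, whose median was 0.10, and Txnip, an inhibitor of glucose uptake, had -0.97 ± 0.27 (adjusted p = 0.121). The phosphate transporter Slc20a1 had 6.68, 5.21 and 7.56 CPM in mock and 16.4, 17.2 and 16.4 CPM with palmitate (1.34 ± 0.21, adjusted p = 0.00369, or 0.0724 without mock replicate 2). Slc30a1, a zinc exporter, rose by 1.61 ± 0.32 (adjusted p = 0.0349).

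The membrane-anchored semaphorin Sema7a, the proteoglycan syndecan Sdc4 and the cytokine receptor Tnfrsf12a were called at 1.44, 1.04 and 1.33. The AMPK-related kinase Nuak1, the small GTPase Rasl11b, the cGMP-dependent kinase Prkg2, the pseudokinase Prag1 and the cullin adaptor Kctd11 had 1.30, 1.27, 1.44, 1.42 and 1.30. Prag1 was called in 4 of the 6 leave-one-out fits, Sema7a, Nuak1 and Rasl11b in 3, Prkg2 and Kctd11 in 2, and Sdc4 and Tnfrsf12a only in the fit without replicate 2. Tnfrsf12a, which overlaps Hcfc1r1 on the other strand, had 24, 17 and 27 counts in mock and 64, 0 and 64 with palmitate. Its groups overlap only through the library with 0 counts.

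Ddx21 (chr 10, 62042996 to 62065046), a nucleolar RNA helicase, had 12.5, 9.99 and 12.5 CPM in mock and 27.9, 10.3 and 24.3 CPM with palmitate. Replicate 2, with 3 counts, lay in the mock range, and the log2 fold change was 1.08 ± 0.23 (adjusted p = 0.0425), or 1.19 ± 0.20 without it (adjusted p = 0.00791). Without any of the other 5 libraries it was not called (0.0778 to 0.285). The RNA-binding protein Samd4 rose by 1.39 ± 0.21 (adjusted p = 0.00307) and was called in 5 of the 6 leave-one-out fits (adjusted p = 0.0566 without mock replicate 2). The poly(A) polymerase Tent4a, the p53 target Zmat3 and the deubiquitinase Usp10 had 1.02, 1.05 and 1.03. The actin-binding protein Lima1 had 95.2, 109 and 145 CPM in mock and 225, 452 and 335 CPM with palmitate (1.52 ± 0.34, adjusted p = 0.0481, or 0.0764 to 0.291 without any mock library or palmitate replicate 3). Mtus1 and Mtcl1, which bind microtubules, the junction protein Jcad and the glycosyltransferase Gcnt4 completed the 36, at 1.14, 1.23, 1.10 and 1.53.

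Messages for snoRNA proteins and nucleolar ribosome assembly had positive values throughout, with few calls. All 36 members tested, of 38, were above 0, where 46.0% of all features were, and the median was 0.46 (0.45 without replicate 2, and 0.42 to 0.54 without any one of the 6 libraries). Ddx21 was the 1 member called, 12 were higher at an unadjusted p under 0.05 (6.08% of all features), DESeq2 called 0 and limma with library weights called 5. Rrp12, a pre-ribosome export factor, had 2.58, 3.48 and 4.0 CPM in mock and 6.73, 6.90 and 6.07 CPM with palmitate, with no overlap and 0.93 ± 0.28 (adjusted p = 0.155). Nolc1, a snoRNP chaperone, and Heatr1, a component of the small subunit processome, were called without replicate 2, at 0.97 ± 0.21 and 0.85 ± 0.17. Outside the list, Urb1, Noc3l, Wdr43 and Sdad1, which also act in ribosome assembly and were picked out after their values were seen, were called without replicate 2 at 1.01, 1.0, 0.84 and 0.97. Wdr43 holds Snord53 and Snord92 on its own strand, and Sdad1 overlaps another small RNA gene.

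The 18 lower features were spread over functions. Osr2 (chr 15, 35225853 to 35233059), a zinc finger transcription factor of mesenchyme, had 20.05, 23.5 and 26.1 CPM in mock and 8.83, 6.90 and 8.01 CPM with palmitate. It had the smallest p among the lower features, with no overlap, and fell by 1.47 ± 0.21 on the log2 scale (adjusted p = 0.00225), 1.43 without replicate 2. The matrix protease Adamts1 (chr 16, 85794072 to 85803358) had 39.5, 45.6 and 48.2 CPM in mock and 21.9, 17.2 and 24.2 CPM with palmitate. It fell by 0.99 ± 0.20 (adjusted p = 0.0363), but was called in 1 of the 6 leave-one-out fits, that without replicate 2 (adjusted p = 0.0209, and 0.0877 to 0.199 in the other 5). It was the 1 call among 40 fibroblast matrix genes tested, whose median was -0.01.

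Cers4 (Lass4 in the files; chr 8, 4493405 to 4526079), a ceramide synthase, had 9.57, 9.70 and 8.15 CPM in mock and 3.50, 0 and 3.04 CPM with palmitate. Palmitate replicates 1 and 3 were below all mock libraries, while the 0 of replicate 2 allows up to 10.3 CPM, above the mock level. The log2 fold change was -1.52 ± 0.26 (edgeR, adjusted p = 0.00991). The adjusted p was 0.0808, 0.0780 and 0.0935 without mock replicate 1, mock replicate 2 and palmitate replicate 3. Ppm1k (chr 6, 57456496 to 57485420), a mitochondrial phosphatase that acts on the dehydrogenase of branched-chain keto acids, had 4.40, 3.77 and 3.71 CPM in mock and 0.701, 6.90 and 0.690 CPM with palmitate. Its 2 counts in replicate 2 put that library above mock, against the other palmitate libraries. The log2 fold change was -2.20 ± 0.43 (adjusted p = 0.0328), or -2.44 ± 0.39 without replicate 2 (adjusted p = 0.00464), and it was not called without any of the other 5 libraries (0.0505 to 0.172).

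Among the remaining 14, Pik3ip1, an inhibitor of PI3-kinase, and the small GTPase regulators Arhgap20 and Asap3 had -1.13, -1.02 and -1.33. The histone H4 methyltransferase Kmt5c and the recombination protein Rad51b had -1.80 and -1.56, both with 0 counts in replicate 2. Armcx1, Cnnm2, Ssbp2, Alms1, Ptchd1, Izumo4, AI593442 and AW549877 had values between -0.89 and -1.65, and the pseudogene Pisd-ps2, whose reads may be shared with its parent gene, had -1.18. Of these 14, Kmt5c and Izumo4 were called in 2 of the 6 leave-one-out fits and the other 12 only in the fit without replicate 2. In all, 7 of the 18 lower features and 2 of the 36 higher ones had 0 counts in replicate 2.

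Promoters were available for 23 of the 36 higher and 15 of the 18 lower features (RefSeq, GRCm38.p6, 250 bases before to 50 after the start), and letters of known motifs were searched on both strands. The AP-1 motif TGANTCA, bound by Fos and Jun proteins, was found in 5 of the 23 (21.7%), in 0 of the 15 lower ones, and in 5.87% of 7770 promoters of tested genes. The TEAD motif CATTCC, through which YAP acts, was found in 6 of the 23, in 1 of the 15 and in 13.9% of all, with Ccn1, Nr4a1 and Slc20a1 among the 6. Of the other motifs, the direct repeat 1 element of fatty acid receptors and the cAMP response element TGACGTCA were found in 0 of the 23, against 0.0515% and 3.64% of all promoters. The serum response element was found in 1 of the 23 (Lima1), against 1.609% of all promoters. The forkhead motif GTAAACA and the motif AAAGGTCA were found in 1 each (Gfpt2 and Olr1), against 2.909% and 1.055% of all. These 3 motifs were found in 0 of the 15 lower ones. The TEAD motif and the serum response element were added after the calls were seen. Promoters of 2 of the 5 genes with the AP-1 letters, both named above, are shown 5′ to 3′ on the gene's strand with the match in capitals (Gfpt2, chr11:49793905-49794204, plus strand; Olr1, chr6:129507116-129507415, minus strand; GRCm38.p6).
Gfpt2: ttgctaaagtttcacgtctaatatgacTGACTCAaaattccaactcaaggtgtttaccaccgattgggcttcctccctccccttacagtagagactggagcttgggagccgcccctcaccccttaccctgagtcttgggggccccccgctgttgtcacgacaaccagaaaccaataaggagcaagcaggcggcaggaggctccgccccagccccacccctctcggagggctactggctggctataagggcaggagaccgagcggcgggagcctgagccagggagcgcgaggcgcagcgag
Olr1: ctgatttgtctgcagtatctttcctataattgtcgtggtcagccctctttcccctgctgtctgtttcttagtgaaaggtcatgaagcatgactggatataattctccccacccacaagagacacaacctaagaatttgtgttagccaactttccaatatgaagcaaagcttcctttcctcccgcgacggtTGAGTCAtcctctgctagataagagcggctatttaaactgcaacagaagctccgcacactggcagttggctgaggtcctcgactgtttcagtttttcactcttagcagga

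The fit without palmitate replicate 2 did not use the levels in that library. Of the 96 features it called higher, 58 had a level there above all 3 mock libraries, where 30.1% of all tested features did. Of the 31 it called lower, 29 lay below all mock libraries, where 59.7% of all features did. A total of 73 features were called only without replicate 2. As these were not called once replicate 2 was added, its values had a part in their choice. Of the 60 called higher among the 73, 29 had a level in replicate 2 above all 3 mock libraries. Of the 13 called lower among the 73, 12 lay below all mock libraries. A count of 0 lies below mock at any level up to 10.3 CPM. Of all 31 features called lower without replicate 2, 12 had 0 counts in it, as had 10 of the 96 called higher. Fem1b, Atxn1, Denr, Tgfb3 and St6galnac6 belong to the features with excess counts in replicate 2. Fem1b, a subunit of a ubiquitin ligase, had 45.9, 50.8 and 50.4 CPM in mock and 142, 1310.2 and 102 CPM with palmitate. Its log2 fold change was 3.34 ± 0.84 with all libraries (adjusted p = 0.14) and 1.34 ± 0.20 without replicate 2 (adjusted p = 0.00228). All 3 palmitate libraries lay above mock, with replicate 2 far above the other two.

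Other features called without replicate 2, picked after their values were seen, follow. The calcium-regulated factor Nfatc2 had 2.73, 2.46 and 2.67 CPM in mock and 6.45, 3.45 and 7.45 CPM with palmitate, and 1.43 ± 0.31 (adjusted p = 0.0303). Palld, an actin-bundling protein, was the 1 call among 38 genes of the actin cytoskeleton, at 0.80 ± 0.19 (adjusted p = 0.0446). Of these 38, 37 had positive values without replicate 2 (median 0.43). With all libraries 33 were positive (median 0.26), where 46.0% of all features were. In that fit 9 were higher and 0 lower at an unadjusted p under 0.05 (edgeR), against 6.08% and 7.28% of all features. Aen, a nuclease and p53 target, had 1.58 ± 0.34, and the transcription factor Cebpb, on the stress response list, 1.11 ± 0.25. On the lower side, the stem cell factor gene Kitl had 40.4, 39.4 and 34.2 CPM in mock and 20.3, 3.45 and 21 CPM with palmitate, and -0.85 ± 0.17 (adjusted p = 0.023). The cell cycle inhibitor Cdkn1b had -0.83 ± 0.18 (adjusted p = 0.0329), and the amino acid transporter Slc7a3 had -1.60 ± 0.37 (adjusted p = 0.0443).

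The series' title concerns small nucleolar RNAs, which guide the modification of ribosomal RNA, and with mutant PKR in dataset A none of them passed the test. With wild-type PKR in dataset A edgeR also called 0 of the C/D and 0 of the H/ACA box type. With the mutant in dataset B it called 0 of the C/D and 1 of the H/ACA box type, which was higher. Of the 71 tested of the C/D box type, guides of ribose methylation, 0 were called by edgeR, DESeq2 or limma with library weights, with 0 higher and 10 lower at an unadjusted p under 0.05, where 6.08% of all features were higher and 7.28% lower. Of 37 H/ACA box snoRNAs, which guide pseudouridylation, 0 were called by the same tools, with 0 higher and 2 lower at that level. Yet 69 of the 71 C/D and 32 of the 37 H/ACA members had negative values, with medians of -0.81 and -0.35 (-0.72 and -0.40 without replicate 2). Most had the opposite sign in the other comparisons, where 70 of 71 and 37 of 37 were positive with wild-type PKR in dataset A (medians 0.57 and 0.72) and 64 of 71 and 35 of 37 with the mutant in dataset B (0.50 and 0.65). Single snoRNAs had a median SE of 0.506 on the log2 scale, and protein-coding features 0.273. The 3 C/D box snoRNAs named below are shown 5′ to 3′ (GENCODE M21), because they had among the smallest p of that class and carry both sequence marks of it. The C box (GTGATGA or ATGATGA) and the D box (CTGA) are in capitals.
Snord4a: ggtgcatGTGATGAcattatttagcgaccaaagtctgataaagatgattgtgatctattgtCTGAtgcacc
Snord38a: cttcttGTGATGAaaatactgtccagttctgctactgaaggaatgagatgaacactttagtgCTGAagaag
Snord14e: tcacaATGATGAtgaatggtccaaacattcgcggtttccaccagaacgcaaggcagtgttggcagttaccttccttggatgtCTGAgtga

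The levels of these snoRNAs differed among the mock libraries themselves. Snord4a, within Rpl23a and opposite Tlcd1 (chr 11, 77995188 to 77995258, minus strand, mm9), had 6275, 2882 and 1643 CPM in mock and 1867, 659 and 1506 CPM with palmitate. Mock replicate 3 lay below palmitate replicate 1, so that the groups overlap, and the log2 fold change was -1.42 ± 0.62 (adjusted p = 0.336). Snord38a had 2046, 1289.9 and 625 CPM in mock and 709, 259 and 560 CPM with palmitate (-1.36 ± 0.58, adjusted p = 0.323). Snord14e, within Hspa8, had 857, 539 and 366 CPM in mock and 251, 96.5 and 414 CPM with palmitate (-1.18 ± 0.47, adjusted p = 0.278). The H/ACA box snoRNA Snora73a, within Rcc1, had 818, 401 and 248 CPM in mock and 215, 69.0 and 307 CPM with palmitate. In each of the 4, mock replicate 1 was highest and palmitate replicate 2 lowest.

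The same order held for the class as a whole. C/D box snoRNAs took 19.8%, 15% and 11.3% of the counts in mock replicates 1, 2 and 3 and 8.59%, 3.08% and 11.1% in palmitate replicates 1, 2 and 3. The ratio of the means was 0.493, or 0.639 without replicate 2, and the median log2 fold change of the list was -0.26 without mock replicate 1. H/ACA box snoRNAs took 0.419%, 0.335% and 0.283% in mock and 0.263%, 0.235% and 0.317% with palmitate, and their median was -0.01 without mock replicate 1. Ribosomal RNA, which took 10.5% to 11.3% in mock, took 12.6% in palmitate replicates 1 and 3 and 35.5% in replicate 2, and snRNA took 5.78% in replicate 2 and at most 1.39% elsewhere. The part of the changed shares of ribosomal RNA and snRNA in the values of other classes was not tested. Ribosomal RNA shares carry the limit on reads of several copies given above.

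**Figure D3:**
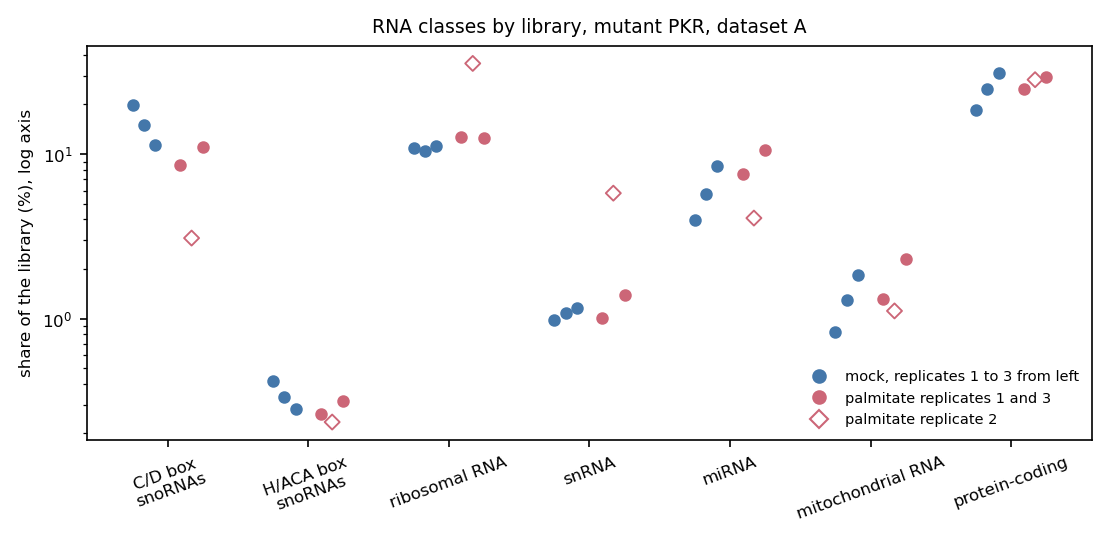
Share of each library's counts (percent, log axis) taken by 7 RNA classes in the 3 mock (blue) and 3 palmitate (red) libraries, with palmitate replicate 2 as an open diamond. C/D box snoRNAs range from 11.3% to 19.8% within mock alone, and replicate 2 stands apart in ribosomal RNA (35.5%) and snRNA (5.78%).

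MicroRNAs, which repress messages through their seed, were not called by edgeR in the fit of all libraries (0 of 176 tested, of 600). There were 28 higher and 2 lower at an unadjusted p under 0.05, against 6.08% and 7.28% of all features. DESeq2 called 1 and limma with library weights 4, all higher. Their median was 0.36, with 142 positive, and it was -0.04 without palmitate replicate 3. The host transcripts Mir17hg and Mir99ahg, whose names match the same pattern, had 0.51 and -1.08 and are not counted here. The 1 call without replicate 2 was Mir342 (chr 12, 109896830 to 109896928, plus strand, mm9), within Evl. It had 6.38, 5.79 and 8.90 CPM in mock and 12.9, 6.90 and 26.6 CPM with palmitate, where the 2 counts of replicate 2 fall in the mock range, and 1.52 ± 0.33 without that library (adjusted p = 0.0449). Mir23a had 12.5, 13.3 and 17.0 CPM in mock and 19.5, 34.5 and 34.0 CPM with palmitate, with no overlap and 0.94 ± 0.24 (adjusted p = 0.0851). Counts were given per hairpin and do not tell the arms apart. Both arms of miR-342 and miR-23a, the microRNAs described here, are shown 5′ to 3′ (RefSeq, GRCm38.p6) with the seed, bases 2 to 8, in capitals. No seed is shared among the 4 arms.
mmu-miR-342-5p: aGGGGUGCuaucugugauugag
mmu-miR-342-3p: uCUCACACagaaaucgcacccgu
mmu-miR-23a-5p: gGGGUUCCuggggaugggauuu
mmu-miR-23a-3p: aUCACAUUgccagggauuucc

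Messages of sterol synthesis and of the interferon response had mostly negative values without a call. Of 22 cholesterol synthesis genes tested, 0 were called by edgeR, DESeq2 or limma with library weights, 5 were lower and 0 higher at an unadjusted p under 0.05 (7.28% and 6.08% of all features), 1 had a positive value (Sc5d), and the median was -0.31 (-0.25 without replicate 2). Dhcr7, the last enzyme of the pathway, had 4.86, 4.05 and 3.85 CPM in mock and 2.24, 0 and 2.07 CPM with palmitate (-1.01 ± 0.34, adjusted p = 0.202). Palmitate replicates 1 and 3 were below all mock libraries, while the 0 of replicate 2 allows up to 10.3 CPM, above the mock level. Of 29 interferon-stimulated genes tested, 0 were called by edgeR or DESeq2, 3 lower by limma with library weights, and 6 were lower and 0 higher at an unadjusted p under 0.05, against the same shares. Their median was -0.33 and 5 were positive. Ifih1, a cytoplasmic sensor of double-stranded RNA, had 2.89, 3.77 and 1.93 CPM in mock and 1.12, 0 and 0.966 CPM with palmitate (-1.47 ± 0.41, adjusted p = 0.126).

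The message of PKR and genes of the integrated and ER stress response were not called by edgeR in the fit of all libraries. Counts per gene do not tell the message of the mutant PKR given back from any of the cells' own gene. Eif2ak2 had 7.75, 11.2 and 7.71 CPM in mock and 9.39, 17.2 and 16.3 CPM with palmitate, and overlapped between groups (0.56 ± 0.29, adjusted p = 0.412). Of 25 genes for PKR and its protein partners 0 were called by edgeR, DESeq2 or limma with library weights, with 0 at an unadjusted p under 0.05, and the median was -0.05. Of 41 genes of the integrated and ER stress response 0 were called by edgeR or DESeq2 and 1 by limma with library weights, with 2 at an unadjusted p under 0.05 (13.4% of all features) and a median of 0.12. Lars2, an abundant feature, had 16530 to 18320 CPM in mock and 12917 to 20711 CPM with palmitate (-0.06 ± 0.54, adjusted p = 0.981).

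**Figure D4:**
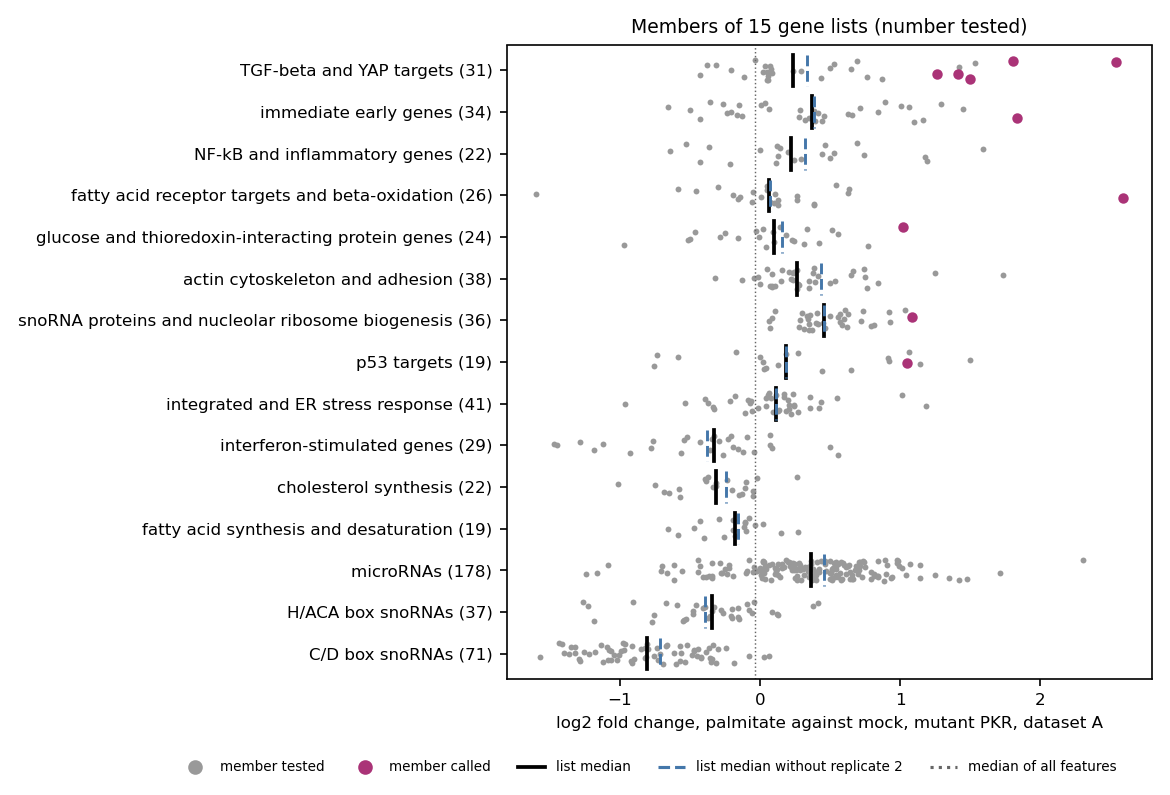
Log2 fold change (palmitate against mock, mutant PKR, dataset A) of each tested member of 15 gene lists (that of microRNAs with the host transcripts Mir17hg and Mir99ahg), with called members in purple, list medians as black bars, medians without palmitate replicate 2 as dashed blue bars and the median of all features as a dotted line. Nucleolar ribosome biogenesis has all 36 members above 0 with a median of 0.46, and C/D box snoRNAs have a median of -0.81 with 0 called.

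The 54 features were also looked up under palmitate with wild-type PKR in dataset A, a comparison with its own mock and palmitate libraries but 1 estimate of spread in common. All 36 higher and all 18 lower features had the same direction there, where 47.3% of all features were positive, with medians of 1.07 and -0.60. Of these, 13 were called in that comparison too, which called 38 features in all (0.335%), so that the shared calls are 24.1% of the 54 and 34.2% of the 38. Among them are Angptl4, Ccn2, Skil, Baz1a, Hivep3, Samd4, Slc20a1, Mtus1, Ddx21 and Hk2, which were higher, and Osr2 and Adamts1, which were lower. The difference of the palmitate effect between genotypes was past the threshold for 0 of 11328 features by edgeR, and for 0 by DESeq2 and by limma with library weights, with 469 at an unadjusted p under 0.05. Ccn1 had 0.34 ± 0.25 with wild-type PKR and 1.50 with the mutant, a difference of -1.16 ± 0.33 (adjusted p = 0.981). Klf5 had 0.36 ± 0.40 against 1.74, a difference of -1.38 ± 0.52 (adjusted p = 0.981).

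Mutant PKR in dataset B, whose libraries are all separate from those of dataset A, gave the other comparison, from a fit of 24 libraries. It called 888 of 12683 features (7%). Of the 36 higher features 33 had the same direction in B and 22 were called there, and of the 18 lower ones 16 had the same direction and 3 were called (Osr2, Adamts1 and Alms1). Where B called 5.61% of features higher and 1.39% lower, the 25 shared calls are 46.3% of the 54 and 2.82% of the 888. Medians in B were 0.81 and -0.31. Angptl4 and Ccn2 had 2.11 ± 0.19 (adjusted p = 1.15e-07) and 2.56 ± 0.25 (adjusted p = 2.86e-07) there. Nr4a1 had 2.97 ± 0.26 in B (adjusted p = 9.13e-08) against 1.83 in A, a difference of -1.13 ± 0.40 in the fit of 24 libraries that did not pass the test (adjusted p = 0.243). Gfpt2 had -0.28 ± 0.27 in B (adjusted p = 0.576), and the difference of 2.11 ± 0.39 had an adjusted p of 0.0648. The difference passed the test for 1 of 12683 features (0.00788%, lower in A), Ppp1r12b, which is no member of the 54. Usp10, Hk2 and Jcad had 0.05, -0.12 and -0.07 in B, with adjusted p of 0.168, 0.112 and 0.101 for the difference.

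**Figure D5:**
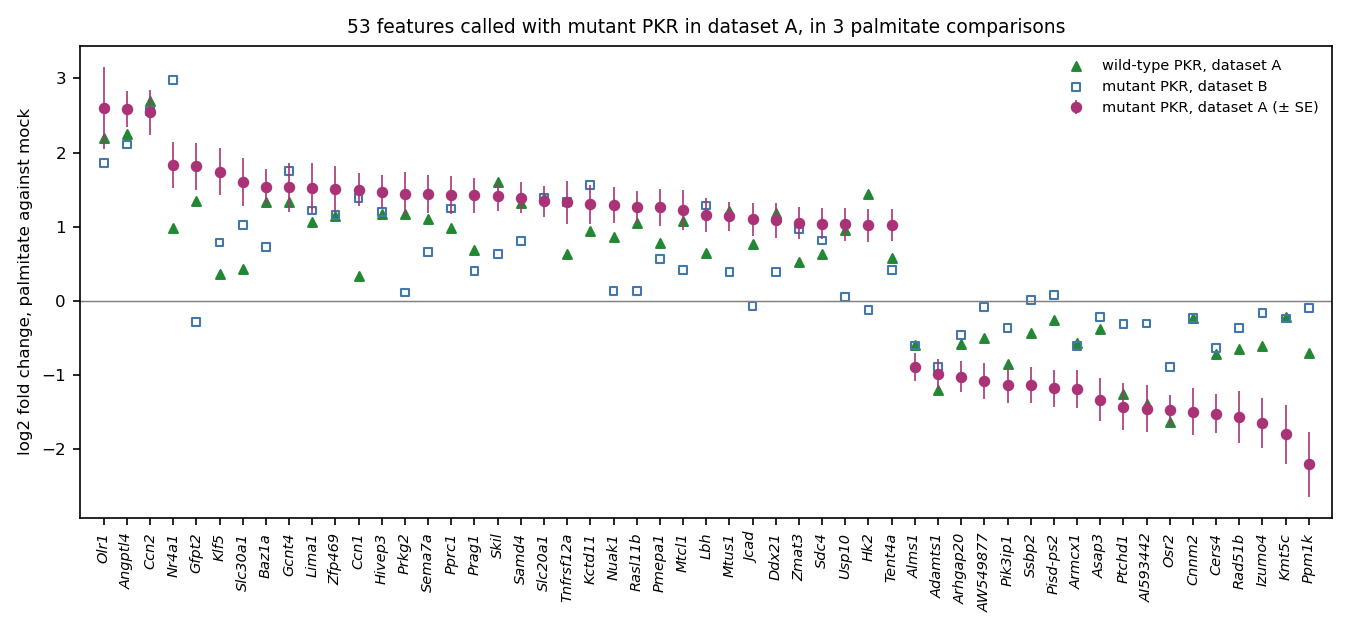
Log2 fold change (palmitate against mock) of the called features named in the text, in mutant PKR of dataset A (circles, ± SE), wild-type PKR of dataset A (triangles) and mutant PKR of dataset B (squares), ordered by the first. All triangles lie on the same side of 0 as the circles, while some squares lie near 0 or on the other side, as for Gfpt2 (-0.28) and Hk2 (-0.12).

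The authors' deposited table for this comparison holds 30 features higher and 47 lower past a score read as a false discovery rate of 0.05. Of these 77 features, 17 were also called here in the same direction, and 3 were not tested here.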

How the data were processed

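Raw counts per feature were deposited by the authors for 24 libraries of datasets A and B, in tables of 30210 features. Per the submitters' processing notes, CASAVA 1.7.0 and 1.8.2 and Novoalign were used with build mm9. The counting tool, its use of strand and how it treated reads matching several places are not stated in the labels or headers, so reads of overlapping genes on opposite strands may not be told apart. The authors' deposited log2 ratio gave the direction, and their deposited score, read as a false discovery rate on a scale of minus 10 times its log10 (13.0 for 0.05), the calls counted from their table. Another 60 columns of per-sample values were not used. Of 29777 Ensembl identifiers 25773 matched GENCODE M21 for names.

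Counts were scaled by TMM and filtered with filterByExpr in edgeR 4.0.16 (R 4.3.3), and the 12 libraries of dataset A were fitted as 4 group means by the robust quasi-likelihood test, two-sided, with Benjamini-Hochberg adjustment over all features and a threshold of 0.05. An SE is the log2 fold change over the square root of F. The effect in dataset B and the difference from it came from a fit of 24 libraries. DESeq2 1.42.0, limma 3.58.1 with library quality weights, other scalings and filters, a replicate block and leaving out each library were alternatives. Plots were drawn with matplotlib 3.10.9. The members and gene lists were chosen with earlier results of these data known. Named were the 15 called features with the smallest p in each direction (mean of at least 10 counts), 10 in the fit without palmitate replicate 2, up to 4 members of each list, 5 for each difference between groups in each direction, and 6 genes by name; of these a part is printed, and other called features were named after their values were seen. The main fit did not pair libraries by replicate number, and whether same-numbered libraries belong together could not be decided. Some features are not reported here.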

Additional observations from a re-analysis of the deposited data

Results flagged for a closer look

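The palmitate effect differed between datasets A and B for 1 of 12683 features, Ppp1r12b (0.00788%), which encodes a regulatory subunit of myosin phosphatase (chr 1, 136651235 to 136852519, minus strand, mm9, opposite Gm22232). With mutant PKR in dataset A it had 22.9, 23.5 and 21.5 CPM in mock and 18.4, 13.8 and 17.4 CPM with palmitate, and the log2 fold change was -0.36 ± 0.21 (edgeR, adjusted p = 0.453). In dataset B it was 1.14 ± 0.16 (adjusted p = 7.62e-05). The difference, A minus B, was -1.49 ± 0.23 (adjusted p = 0.00847). It was picked up by the test of the difference itself. The cause was not tested. The column headers of dataset B carry the mark 2hr and those of dataset A do not, so that the dataset and whatever this mark stands for cannot be told apart.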

How the results depend on the processing

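The 54 calls became 12 with scaling by total counts, 349 without a filter on low counts, 14 with only the 6 mutant libraries (13 higher and 1 lower) and 311 by limma with library weights (173 higher and 138 lower). DESeq2 gave 47, and no robust estimation 46. With alternatives chosen after seeing the data the count was 158 for protein-coding features only, 258 with 24 libraries in the fit, and 158 (113 higher) without palmitate replicate 2 in a fit of the mutant libraries only. Leaving out 1 library in turn gave 5 to 127 calls over all 12 libraries. With the replicate block the count was 37 (30 higher and 7 lower). The deviations of same-numbered mock and palmitate libraries correlated at -0.03, -0.02 and 0.22, and those of the other pairs at -0.21 to 0.13. With 3 libraries per treatment, 1 of them shallow, these values cannot decide whether same-numbered libraries belong together.

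The difference between genotypes had 0 calls, and 88 without a filter. The difference between datasets A and B had 1 call, 4 with total counts, 33 without a filter, 85 by DESeq2, 49 with the replicate block, and 0 to 349 when 1 library was left out (10 without palmitate replicate 2 and 38 without palmitate replicate 3 of dataset A). The log2 fold change of Lars2, -0.059, was 0.027 with total counts, 0.079 without palmitate replicate 1 and 0.0084 without mock replicate 1, in a range of -0.23 to 0.079 with 1 library left out. The causes were not tested.

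Depth limits palmitate replicate 2 most. A feature under 10.3 CPM is expected to give fewer than 3 counts there, so that its level in that library carries little information. Of the 54 features, 9 had 0 counts in it.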
